A study of Mus musculus with 9 samples.

Results

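The libraries described here are the 3 immunoprecipitated (IP) RNA libraries that the investigator ES extracted from mouse cerebral cortex, set against the 3 input libraries that the investigator JL extracted, 6 libraries of the 9 in the series. They were chosen by title: IP1 to IP3 with the initials ES, and Input1 to Input3 with the initials JL. All 32531 gene rows of the count files were used, and 17477 had enough counts to be tested. Every mouse was an untreated adult carrying Abcb1a-EGFP/Rpl10a (line ES3026), a transgene that places the ribosomal protein Rpl10a, tagged with green fluorescent protein, under Abcb1a regulatory sequence; the inputs came from the same line. No wild-type mice, sex, age or number of mice per library is given in the labels, so p-values reflect variation among these libraries, which may be technical, and the tag's other sites of expression within the Abcb1a domain are not described. No ES input was analysed here, so fraction (IP or input) and investigator change together in this comparison and cannot be told apart. The 3 JL IP libraries are used only to show where the ES IPs differ from them.

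Translating ribosome affinity purification (TRAP) recovers mRNA by pulling down ribosomes that carry a tag in one cell type. The input is the total RNA of the same homogenate, which in the cortex is mostly from neurons and glia. Abcb1a encodes P-glycoprotein, an efflux pump of the blood-brain barrier, so the tag is meant to mark ribosomes of brain endothelial cells, the cells that line the vessels and limit what enters the brain. RNA that stays in the nucleus is not bound to ribosomes, whereas total RNA contains it.

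The ES IPs held 41518263 to 46199700 counts in genes and the inputs 42723147 to 46598478. Levels are CPM, counts relative to the library total, after scaling by the trimmed mean of M-values (TMM), and 3 counts correspond to 0.0687 to 0.0747 CPM in the ES IPs. The precursor of ribosomal RNA, Rn45s, took 12, 8.14 and 6.04% of gene counts in ES IPs 1, 2 and 3, against 4.83 to 5.29% in the inputs. Correlations of log2 CPM across genes were 0.98 to 0.994 among the ES IPs, 0.996 to 0.997 among the inputs and 0.913 to 0.943 between the groups. Counts of Y-linked Ddx3y ran from 660 to 1037 among ES IPs and were 3249, 1 and 0 for inputs 1, 2 and 3. The sex, or the mix of sexes, thus differed between libraries and was not balanced between the groups. The ES IP files name sequencing lane 6 and the JL input files lanes 4, 2 and 3, so lane also changes with the group.

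Endothelial mRNA was higher in the ES IPs than in the inputs, the summed level of general neuronal genes was not below that of the inputs, and RNA of glia, of the choroid plexus and of the nucleus was lower. Abcb1a itself (chromosome 5, 8660077 to 8748575 in mm10) stood at 57.3, 44.1 and 39.6 CPM in ES IPs 1, 2 and 3 and at 1.99, 2.84 and 1.94 CPM in the inputs. These groups did not overlap, and the log2 fold change was 4.38 ± 0.22 (SE; adjusted p = 5.92e-06, edgeR quasi-likelihood test). In the JL IPs the same gene reached 469 ± 22.3 CPM (SD, n = 3), so the ES IPs were lower than the JL IPs by a log2 difference of -3.3 ± 0.19 (edgeR adjusted p = 7.29e-07). Rpl10a, the ribosomal protein fused to the tag, stood at 7.34, 3.46 and 2.96 CPM in the ES IPs and 7.69 to 8.37 CPM in the inputs, and its log2 fold change of -0.8 ± 0.32 did not pass the test (edgeR adjusted p = 0.0645), but this call was not firm: Rpl10a passed as lower without ES IP 1 (-1.3, adjusted p = 7.6e-05), with DESeq2 (0.0357), with limma-voom (0.0258), under upper-quartile scaling (0.03) and with library size alone (0.043). This row cannot separate the endogenous gene from the transgene, and ribosomal protein genes have near-identical copies, which makes its level uncertain.

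Across all rows tested, 4704 (26.9%) rose and 4422 (25.3%) fell in the ES IPs at an edgeR adjusted p under 0.05, 52.2% in all. Of these, 2115 higher (12.1%) and 2471 lower (14.1%) differed by at least 2-fold. The median log2 fold change of all rows was 0, and the 10th and 90th percentiles were -1.43 and 1.17. Upper-quartile scaling moved that median by -0.15 (library size alone by -0.11) and gave 3705 higher and 5395 lower, so 40.7% of calls were higher in place of 51.5%. The counts of members that follow are to be read against these shares. For lists of protein-coding genes the share is 30.1% higher and 21.6% lower, over the 14858 such genes tested. The gene lists and the genes named were chosen with earlier results of these libraries known.

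**Figure D1:**
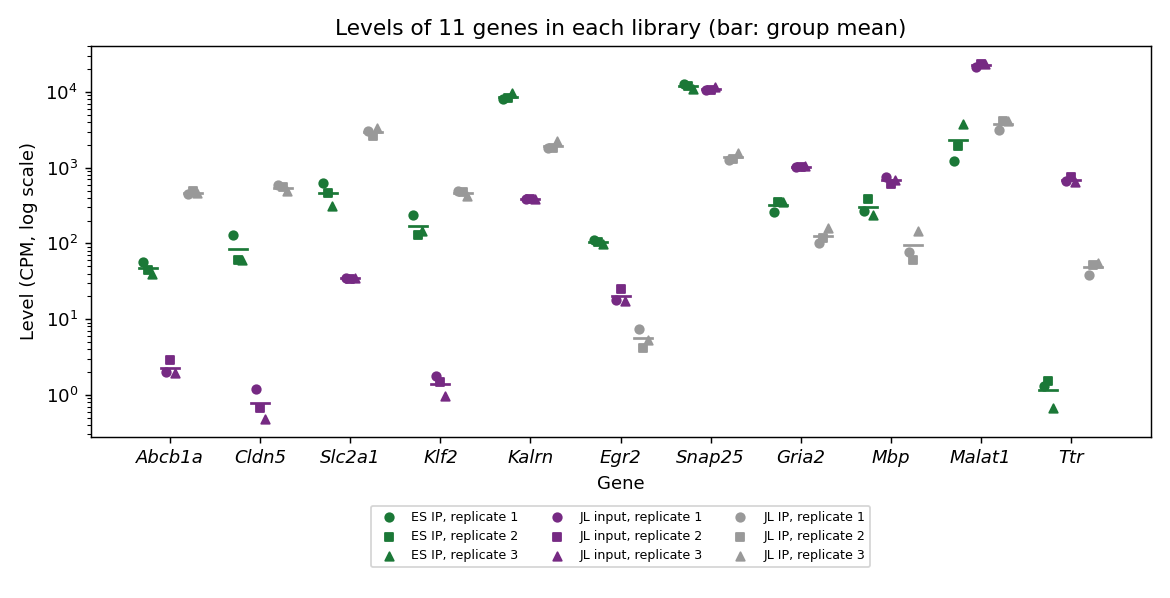
Level of selected genes in every library, in CPM on a log axis; green marks the ES IPs, purple the JL inputs, grey the JL IPs, symbols the replicate numbers and bars the group means. The endothelial genes Abcb1a, Cldn5, Slc2a1 and Klf2 lie above the inputs in all 3 ES IPs and below the JL IPs, Snap25 overlaps the inputs, and Malat1 and Ttr lie below them.

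Every one of the 35 pan-endothelial genes tested rose over input (median log2 fold change 4.48, range 1.57 to 6.78). Ly6a, a surface protein used as an endothelial marker, stood at 404, 237 and 224 CPM in the ES IPs and 2.21 to 3.54 CPM in the inputs (6.6 ± 0.32 on the log2 scale). Ly6c1, a related surface protein, stood at 258, 158 and 135 CPM against 1.26 to 2.18 CPM (6.78 ± 0.34). The smallest change in the list was that of Cd34, a sialomucin of vessels and progenitors, at 93.2, 72 and 60 CPM against 24.7 to 25.6 CPM (1.57 ± 0.17). ES IP 1 was the highest of the 3 for each of these genes. Summed over the list, the ES IPs held 2626, 2027 and 1766 CPM, the inputs 109 to 128 CPM and the JL IPs 14732 to 15597 CPM. In bulk RNA such as this, fewer cells of a type and less RNA per cell cannot be told apart.

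For pan-endothelial genes the ES IPs covered a small part of the distance from input to the JL IPs. For each pan-endothelial gene the excess of the ES IP mean over the input mean was divided by the same excess in the JL IPs, and the median share was 12.2%. For Abcb1a the share was 9.58%, and for Cldn5, a claudin that seals the junctions between brain endothelial cells, it was 15.1%. Against the JL IPs all 35 were lower (28.2% of the 16212 rows tested were lower there and 29.7% higher, edgeR adjusted p under 0.05). Klf2, which is not in the pan-endothelial list, had a share of 36.3%. It was chosen among the largest changes over input, which favours a high share.

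Most genes of the blood-brain barrier rose as well, by less. Of 30 barrier transporters, 23 were higher, 2 lower and 5 did not pass (median log2 fold change 1.84, median share of the JL IP excess 10.8%). Slc2a1, the glucose transporter GLUT1, stood at 622, 459 and 316 CPM against 34.2 to 35.2 CPM (3.74 ± 0.25, edgeR adjusted p = 1.86e-05). Slc6a6, a taurine transporter, stood at 461, 513 and 538 CPM against 134 to 152 CPM (1.79 ± 0.13). The largest change was that of Slc52a3, a riboflavin transporter, at 6.32 ± 0.3. Slc7a3, a transporter of cationic amino acids, and Insr, the insulin receptor, were lower, by log2 fold changes of -0.84 ± 0.25 and -0.44 ± 0.15. Neither call was firm: that of Slc7a3 was lost without ES IP 2 or 3 or input 1 or 3 (edgeR adjusted p = 0.0656 to 0.0735), and that of Insr without ES IP 2 or any 1 input (0.0579 to 0.128). Among 16 genes of tight and adherens junctions, 11 were higher and 3 lower. Cldn5 (chromosome 16, 18776847 to 18778262) stood at 129, 60.7 and 60.3 CPM in the ES IPs and 1.19, 0.668 and 0.479 CPM in the inputs (6.72 ± 0.45). Jam3, Cldn1 and Cldn12, which neurons or glia also express, were the 3 members that were lower, and the call of Cldn1 was lost without ES IP 2 or 3 or input 2 or 3 (edgeR adjusted p = 0.0531 to 0.0825).

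Genes of Wnt and Norrin signalling, which maintain the barrier, were higher in 16 of 22 cases and lower in 2. Foxq1, a forkhead factor, had the largest change of that list (6.38 ± 0.32), although 66.1% of its exon bases overlap another annotated gene and strand is not known to have been used. Ndp, the gene of the Norrin ligand, and Adgra2, a coreceptor, were lower (-0.69 ± 0.25 and -0.57 ± 0.14). The call of Ndp was lost without ES IP 2 or 3 or any 1 input (edgeR adjusted p = 0.0605 to 0.156) and that of Adgra2 without input 3 (0.0548). Ctnnb1, beta-catenin, stood at 523, 882 and 529 CPM against 265 to 289 CPM (1.21 ± 0.21). Arterial markers were higher in 15 of 19 cases and lower in 1, Nrp1, a semaphorin and VEGF coreceptor that neurons also carry (-0.82 ± 0.12); without ES IP 1, 2 were lower. Mgp, matrix Gla protein, stood at 903, 456 and 367 CPM against 18.4 to 29.7 CPM (4.6 ± 0.38). Gkn3, an arterial marker of brain, stood at 80.5, 35.7 and 27.8 CPM against 0.206 to 0.668 CPM (6.8 ± 0.56). Venous and adhesion markers were higher in 12 of 13 cases, and the exception was Ackr1, the atypical chemokine receptor of venules, at 18.7, 26.7 and 32.8 CPM against 44.4 to 51.1 CPM (-0.89 ± 0.2).

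The interferon response list, 22 genes of antiviral defence and antigen presentation, was higher in 21 cases and lower in none (median log2 fold change 2.43). Ifitm3, an antiviral membrane protein, stood at 384, 206 and 229 CPM against 8.02 to 11.4 CPM (4.86 ± 0.29). B2m, the light chain of MHC class I, stood at 449, 237 and 250 CPM against 74.7 to 84.5 CPM (2 ± 0.25). All 22 were lower in the ES IPs than in the JL IPs.

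The 15 largest increases under the naming rule were Tmem252, Ctla2a, Cytl1, Ctla2b, Klf2, Gkn3, Ly6c1, Cldn5, Ly6a, Foxf1, Bmx, Foxq1, Fmo2, Slc52a3 and Akr1c14, with log2 fold changes from 7.29 to 6.2. Tmem252, a small membrane protein, stood at 60.6, 39.4 and 18 CPM in the ES IPs and 0.205 to 0.288 CPM in the inputs. Ctla2a, which encodes a protease inhibitor, stood at 129, 67.9 and 54.1 CPM against 0.411 to 0.662 CPM. Bmx, a non-receptor tyrosine kinase of arterial endothelium, stood at 39.6, 21.8 and 23.2 CPM against 0.0617 to 0.584 CPM. In each of these 3 genes ES IP 1 was the highest library; the rule admitted only genes whose groups did not overlap. Ctla2b shares 90.1% of its exon bases with another annotated gene, so its value is uncertain.

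Markers of the cells around the vessels did not rise as the pan-endothelial genes did, and their lists differed in direction. Of 16 pericyte genes, 1 was higher and 6 were lower (median -0.64); the 1 higher was Anpep, a surface peptidase, at 7.24, 5.49 and 3.56 CPM against 2.26 to 2.53 CPM. Rgs5, a regulator of G protein signalling and a defining pericyte gene, stood at 6.1, 8.26 and 7.6 CPM against 13.8 to 16.9 CPM (-1.08 ± 0.16). Smooth muscle genes were higher in 6 of 16 cases and lower in 1 (3 without ES IP 1); Smtn, smoothelin, stood at 19.1, 21 and 18.2 CPM against 1.78 to 2.65 CPM (3.08 ± 0.18). Perivascular fibroblast genes were higher in 2 of 16 cases, Fn1 and Islr, and lower in 4, or 2 without input 1 or input 2. Basement membrane genes were higher in 6 of 15 cases and lower in 2; Hspg2, the gene of perlecan, rose (2.32 ± 0.24) and Lama2, a laminin chain, fell (-1.45 ± 0.26).

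**Figure D2:**
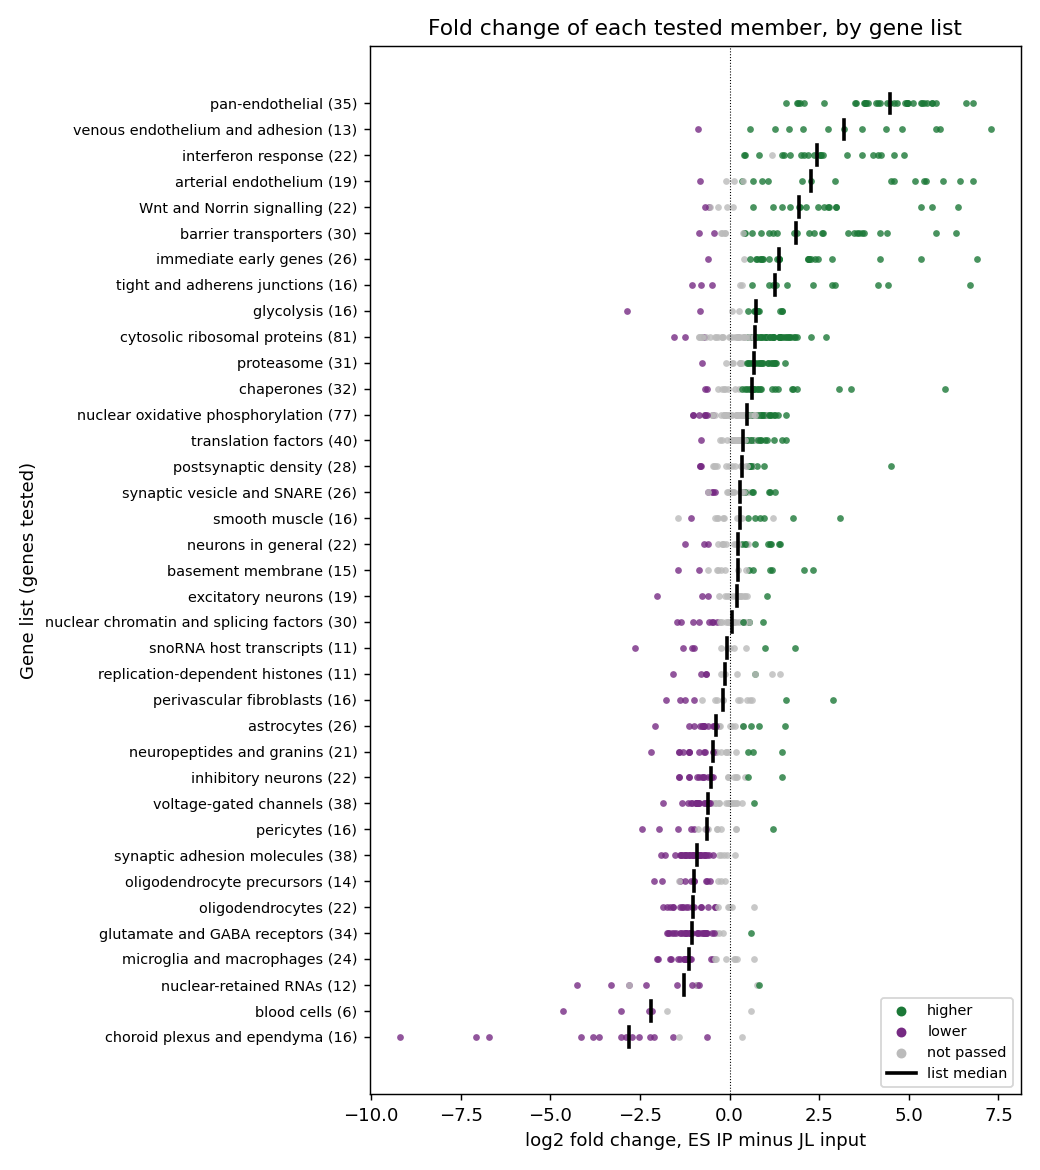
Log2 fold change of ES IP over JL input for every tested member of each gene list (number tested in brackets); green points were higher and purple points lower at an adjusted p under 0.05, grey points did not pass, and black bars are list medians. The pan-endothelial list lies highest, with a median of 4.48, and the choroid plexus and ependyma list lowest, with a median of -2.81.

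General neuronal mRNA was not depleted in the ES IPs relative to total cortex RNA. Summed over 22 neuronal genes, the ES IPs held 27192, 27379 and 25241 CPM, the inputs 23423 to 24669 CPM and the JL IPs 2974 to 3942 CPM. On this TMM scale the ES IPs lay slightly above the inputs and far above the JL IPs. The sums were not computed under other scalings, and upper-quartile scaling moved the median log2 fold change of all rows to -0.15. Of the 22, 9 were higher than in the inputs, 3 were lower (6 without ES IP 1) and 10 did not pass. Snap25, a SNARE protein of synaptic vesicle release, made up a large part of the summed level in both groups. It stood at 12926, 11943 and 11110 CPM in the ES IPs and 10665, 10738 and 11613 CPM in the inputs. The groups overlapped (log2 fold change 0.12 ± 0.16, edgeR adjusted p = 0.538), while against the JL IPs, at 1383 ± 177 CPM, the log2 difference was 3.14 ± 0.19 (adjusted p = 7.29e-07). All 22 genes were higher in the ES IPs than in the JL IPs. The label of endothelial cells thus fits the rise of the endothelial markers, but not the 22 general neuronal markers, which were not depleted as a group. Other neuronal lists went both ways. Inhibitory neuron genes were lower in 14 of 22 cases and higher in 2, and postsynaptic density genes higher in 10 of 28 and lower in 3. Eno2, neuronal enolase, stood at 1583, 1605 and 1407 CPM against 529 to 603 CPM (1.42 ± 0.13), and Map2, a dendritic microtubule protein, at 277, 486 and 479 CPM against 907 to 1033 CPM (-1.25 ± 0.22).

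Lists of neuronal genes differed in direction. They also differ in gene length, and what the genes encode was not separated from length. Of 34 glutamate and GABA receptor genes, 30 fell and 1 rose (median log2 fold change -1.06). Gria2, an AMPA receptor subunit, stood at 262, 350 and 351 CPM against 1008, 1014 and 1067 CPM (-1.68 ± 0.15, edgeR adjusted p = 8.48e-05). The exception was Grik3, a kainate receptor subunit, at 109, 146 and 169 CPM against 89.4 to 97.3 CPM (0.6 ± 0.17); its call was lost without any 1 of the inputs (edgeR adjusted p = 0.0529 to 0.0704) and under upper-quartile scaling (0.0588). Synaptic adhesion molecules were lower in 33 of 38 cases and higher in none (median -0.9), with the smallest value for Lrrtm2, a postsynaptic leucine-rich repeat protein, at 43.3, 62.5 and 52.7 CPM against 187 to 210 CPM (-1.9 ± 0.16). Voltage-gated channels were lower in 21 of 38 cases and higher in 1, Cacnb1, a cytoplasmic calcium channel subunit (0.69 ± 0.12); without ES IP 1, 6 were higher. Set against the JL IPs, all 34 receptor genes were higher in the ES IPs.

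Cytoplasmic and scaffold genes of the synapse did not fall as a group. Postsynaptic density genes were higher in 10 of 28 cases and lower in 3, and synaptic vesicle and SNARE genes were higher in 9 of 26 and lower in 4. Without ES IP 1 these became 19 and 4, and 15 and 4; without input 1 they became 6 of the density genes higher, and 4 higher and 2 lower of the vesicle genes, which also had 4 higher without input 2 or input 3, and 1 lower without input 2. Upper-quartile scaling and library size alone likewise gave 4 vesicle genes higher and 4 lower. Cplx2, complexin 2, which binds the SNARE complex, stood at 1720, 2056 and 2992 CPM against 928 to 945 CPM (1.27 ± 0.21). Camk2a, the kinase of the postsynaptic density, stood at 1610, 2832 and 2304 CPM against 1740 to 1833 CPM and did not pass (edgeR adjusted p = 0.208; 0.00136 without ES IP 1), with ES IP 1 below the inputs and the other two above.

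Kalrn, the gene of kalirin, a guanine nucleotide exchange factor of dendritic spines (chromosome 16, 33969073 to 34573532), had the largest change among the postsynaptic density genes. It stood at 8057, 8249 and 9811 CPM in the ES IPs and 391, 383 and 389 CPM in the inputs, which is a log2 fold change of 4.49 ± 0.17 (edgeR adjusted p = 2.66e-06). In the JL IPs it stood at 1959 ± 238 CPM, above the inputs but below the ES IPs, which were higher than the JL IPs by 2.18 ± 0.19 on the log2 scale (adjusted p = 3.2e-06). Kalrn departed from Abcb1a and Cldn5, which were highest in the JL IPs, and from Snap25, which was lowest there.

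Among markers of neuron classes, excitatory genes were higher in 1 of 19 cases and lower in 3, and inhibitory genes higher in 2 of 22 and lower in 14 (median -0.52). Without ES IP 1 the excitatory counts became 10 and 4. Slc17a6, the vesicular glutamate transporter VGLUT2 of thalamic and other subcortical neurons, had the smallest value of its list, at 17.8, 21.2 and 19.4 CPM against 75.6 to 83.8 CPM (-2.02 ± 0.12). Gad2, a GABA-synthesising enzyme, stood at 340, 526 and 504 CPM against 705 to 825 CPM (-0.75 ± 0.18). The 2 inhibitory genes that were higher encode neuropeptides: Vip stood at 23, 16.6 and 11.9 CPM against 6.07 to 6.26 CPM (1.47 ± 0.23) and Npy at 68.9, 58.6 and 55.3 CPM against 41.7 to 43.1 CPM (0.52 ± 0.12). Neuropeptides and granins as a list were nevertheless lower in 12 of 21 cases and higher in 3, with Cartpt lowest at -2.18 ± 0.19.

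Glial genes were mostly lower in the ES IPs. Of 22 oligodendrocyte genes, 17 were lower and none higher (median -1.02). Mbp, myelin basic protein, stood at 270, 389 and 241 CPM against 764, 617 and 685 CPM (-1.2 ± 0.2, edgeR adjusted p = 0.00146). In the JL IPs Mbp was lower still, at 94.4 ± 44.9 CPM. Oligodendrocyte precursor genes were lower in 10 of 14 cases and higher in none, and microglia and macrophage genes lower in 16 of 24 and higher in none (median -1.13); P2ry12, a purinergic receptor that defines microglia, stood at 4.8, 5.31 and 4.97 CPM against 19.9 to 20.7 CPM. Astrocyte genes were lower in 14 of 26 cases and higher in 4: Aldh1l1, Glul, Gja1 and Acsbg1. Without input 1 these counts became 8 and 2. The call of Gja1 was lost without input 1 or input 2 (edgeR adjusted p = 0.0502 and 0.0527), and that of Acsbg1 without ES IP 2 or any 1 input (0.0871 to 0.135), under upper-quartile scaling (0.152), with library size alone (0.106) and with all 9 libraries in 1 fit (0.225). Aqp4, the water channel of astrocyte endfeet, stood at 13.6, 14.7 and 17.6 CPM against 61.8 to 68.2 CPM (-2.07 ± 0.13), whereas Aldh1l1, a folate enzyme and astrocyte marker, stood at 21.4, 24.7 and 23 CPM against 7.24 to 8.49 CPM (1.54 ± 0.13).

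The smallest fold changes under the naming rule were those of Ttr, a gene of the choroid plexus, and Shox2, a gene of the thalamus. Choroid plexus and ependyma genes were lower in 14 of 16 cases and higher in none (median -2.81). Ttr, transthyretin, secreted by the choroid plexus, stood at 1.29, 1.53 and 0.669 CPM in the ES IPs and 668, 748 and 650 CPM in the inputs, which is a log2 fold change of -9.2 ± 0.32 (edgeR adjusted p = 1.64e-06). Its level in the JL IPs, 48.4 ± 8.55 CPM, lay between these, and the ES IPs were lower than the JL IPs by -5.35 ± 0.32 on the log2 scale (adjusted p = 7.29e-07). Shox2, a homeobox gene of the thalamus, was counted 0, 2 and 0 times in ES IPs 1 to 3 and 507, 458 and 443 times in inputs 1 to 3, a level 631-fold lower in the ES IPs with a 95% counting interval of 174 to 5212. Chosen after their values were seen, Tcf7l2 and Prkcd, which thalamic neurons express strongly, stood at 17.6, 24.8 and 27.8 CPM against 105 to 118 CPM and at 6.07, 5.86 and 4.97 CPM against 34.4 to 44.6 CPM. Both were lower in the ES IPs than in the JL IPs too, each by -1.79 on the log2 scale (SE 0.2 and 0.21, adjusted p = 2.11e-05 and 2.84e-05). The dissection that each investigator made is not described further in the labels, and its part in these values was not tested.

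The other rows among the 15 smallest were Ebf3, Snhg11, Prlr, Doc2g, Firre, Amy1, Trank1, Malat1, Igf2, Th, Irs4, Rab37 and Hbb-b2, with log2 fold changes from -4.6 to -2.91. Prlr, the prolactin receptor, which the choroid plexus expresses, stood at 1.17, 1.05 and 1.03 CPM against 14.1 to 16.5 CPM. Igf2, a growth factor of choroid plexus and meninges, stood at 11.7, 21.1 and 17.8 CPM against 132 to 142 CPM, with 68.5% of its exon bases shared with another annotated gene. Hbb-b2, an adult globin, stood at 1.74, 1.6 and 1.19 CPM against 19.7, 7.81 and 6.55 CPM, with input 1 the highest.

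Nuclear RNA was lower in the ES IPs. Malat1, a long noncoding RNA of nuclear speckles (chromosome 19, 5795690 to 5802672), stood at 1230, 1940 and 3783 CPM against 21418, 23231 and 23679 CPM (-3.3 ± 0.4, edgeR adjusted p = 0.000314). In the JL IPs it stood at 3830 ± 587 CPM, and the log2 difference of -0.7 ± 0.34 between the IPs did not pass (adjusted p = 0.0994), but passed without ES IP 3 (0.00089), with limma-voom (0.0368) and with all 9 libraries in 1 fit (0.0441). Meg3, an imprinted noncoding RNA, stood at 279, 387 and 634 CPM against 2803 to 3190 CPM (-2.8 ± 0.29), and Snhg11 at 39.6, 51.4 and 69.7 CPM against 937 to 1082 CPM (-4.24 ± 0.23). For all 3 RNAs ES IP 1 was the lowest and ES IP 3 the highest of the ES IPs. Of 12 nuclear-retained RNAs, 8 were lower and 1, Peg13, was higher (0.83 ± 0.15). Over all 764 long noncoding rows tested, 40.8% were lower and 7.33% higher, against 21.6 and 30.1% of 14858 protein-coding genes. Rows named by sequence accession took 0.911 to 1.09% of gene counts in the ES IPs and 5.78 to 6.49% in the inputs.

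**Figure D3:**
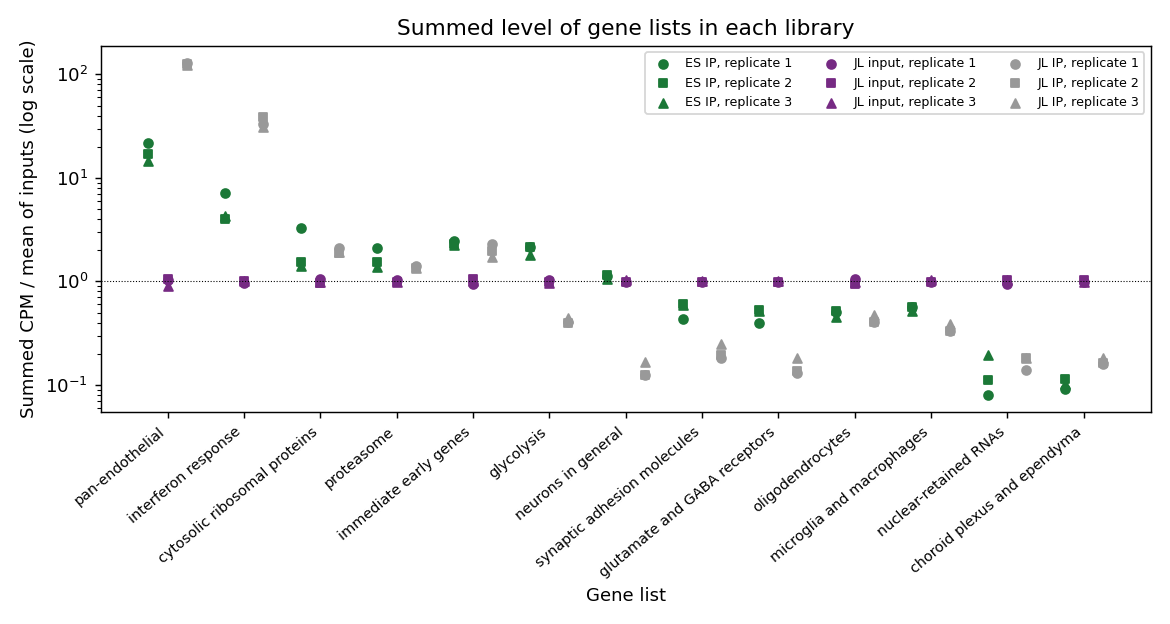
Summed CPM of selected gene lists in each library, divided by the mean of the 3 inputs, on a log axis; green marks the ES IPs, purple the inputs and grey the JL IPs. General neuronal genes lie near the inputs in the ES IPs and below them in the JL IPs, and ES IP 1 stands above ES IPs 2 and 3 for ribosomal proteins and below them for nuclear-retained RNAs.

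Immediate early genes, which neurons and vessels induce within minutes of a stimulus, were higher in 24 of 26 cases and lower in 1, and in all 26 the 3 ES IPs did not overlap the 3 inputs (64.2% of all rows did not). The median log2 fold change was 1.38. Egr2, a zinc finger transcription factor, stood at 112, 105 and 98 CPM against 18.1, 25 and 17.6 CPM (2.38 ± 0.16, edgeR adjusted p = 2.2e-05). Junb, an AP-1 subunit, stood at 87.2, 48.5 and 42 CPM against 10 to 11.2 CPM (2.46 ± 0.27). Fos, its partner in AP-1, stood at 83.7, 68.6 and 64.2 CPM against 23.9 to 30.1 CPM, and Arc, a regulator of AMPA receptor traffic, at 276, 328 and 249 CPM against 100 to 116 CPM, both with a log2 fold change of 1.38. Bdnf, a neurotrophin, was the 1 lower member, at 18, 22.6 and 21.8 CPM against 31.2 to 32.1 CPM (-0.61 ± 0.13). Egr2, Junb, Fos and Arc were named after their values were seen.

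Set against the JL IPs, the immediate early genes moved both ways, 11 higher and 7 lower of 26. Among the 4 named after their values were seen, Egr2 was higher in the ES IPs by 4.24 ± 0.24 on the log2 scale (JL IPs 5.65 ± 1.68 CPM), Arc by 3.55 ± 0.2 (24.8 ± 3.84 CPM), Fos by 2.65 ± 0.45 (11.7 ± 9.2 CPM) and Junb by 1.82 ± 0.26. Klf2, a flow-responsive factor of endothelium, was lower by -1.43 ± 0.23; it stood at 235, 128 and 147 CPM in the ES IPs, 0.959 to 1.79 CPM in the inputs and 466 ± 33.9 CPM in the JL IPs. The list held genes that were highest in the ES IPs and genes that were highest in the JL IPs.

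Genes of the proteasome, of glycolysis and of chaperones were more often higher than lower. Proteasome subunits were higher in 23 of 31 cases and lower in 1 (median 0.69); Psmc5, an ATPase of the regulatory particle, stood at 345, 353 and 299 CPM against 213 to 228 CPM (0.61 ± 0.12). Glycolysis genes were higher in 12 of 16 cases and lower in 2. Pkm, pyruvate kinase, stood at 569, 634 and 522 CPM against 201 to 222 CPM (1.46 ± 0.13). The lower ones, Eno1 and Gapdh, have near-identical pseudogene copies that make their counts uncertain. Such copies were not checked for the members that were higher. Chaperones were higher in 22 of 32 cases and lower in 2, Hsp90b1 and Canx, which act in the endoplasmic reticulum; cytosolic Hsp90ab1 stood at 2189, 2372 and 1875 CPM against 789 to 895 CPM (1.34 ± 0.15). The small heat shock gene Hspb1, at 39.3, 26.3 and 19.9 CPM against 0.329 to 0.525 CPM, had the largest change of the list (6.02 ± 0.33).

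The counts of ribosomal protein and mitochondrial genes depended on single libraries. Cytosolic ribosomal protein genes were higher in 41 of 81 cases and lower in 3, and their summed level was 8769, 4108 and 3770 CPM in ES IPs 1, 2 and 3 against 2611 to 2813 CPM in the inputs. Without ES IP 1 the counts were 43 and 11, and without input 1, 2 or 3 they fell to 27, 24 and 25 higher. Rps3, a small subunit protein, stood at 835, 281 and 249 CPM against 137 to 150 CPM (1.65 ± 0.42). Nuclear genes of oxidative phosphorylation were higher in 22 of 77 cases and lower in 7, with sums of 16954, 11423 and 9864 CPM against 10323 to 10667 CPM, and without ES IP 1 in 32 and 20 cases. Without input 1, 2 or 3 only 9, 8 and 8 of them were higher, and without ES IP 3, 39. Under upper-quartile scaling 10 were higher and 9 lower. The share higher in the main test, 28.6%, is near the 26.9% of all rows and the 30.1% of protein-coding genes. ES IP 1 was also the library with the most Rn45s and the lowest Malat1; the part of RNA quality or capture in these differences was not tested. Translation factors were higher in 14 of 40 cases (35%) and lower in 1 (2.5%), Pabpc1, the poly(A) binding protein, at 93.5, 127 and 126 CPM against 197 to 207 CPM (-0.79 ± 0.14). The share higher is near the 30.1% of protein-coding genes, and the share lower is below their 21.6%. Without input 1 or input 2, 9 translation factors were higher, and without ES IP 1, 21 were higher and 2 lower.

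The remaining lists were small or mixed. Of 30 nuclear chromatin and splicing factors, 5 were higher and 8 lower, and 14 were higher without ES IP 1. Srsf11, a splicing factor, stood at 78.7, 66.6 and 65.9 CPM against 190 to 198 CPM (-1.47 ± 0.12), and Clk1, a kinase of splicing factors, at 77.1, 62.5 and 50.9 CPM against 30 to 37.7 CPM (0.92 ± 0.17). Of 11 snoRNA host transcripts, 2 were higher and 4 lower, with Snhg7 lowest at -2.63 ± 0.28. Of 11 replication-dependent histone genes, 1 was higher and 4 were lower, and none of the 4 was called without ES IP 2, ES IP 3, input 1 or input 2, and 1 without input 3. The 1 higher was lost without any library except ES IP 3, under upper-quartile scaling, with library size alone and with limma-voom. Of 6 blood cell genes, 4 were lower; Hbb-bs, an adult globin, stood at 11.3, 4.56 and 4.99 CPM against 56.1, 22.5 and 20.7 CPM (-2.25 ± 0.48), with library 1 of each group highest.

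Short genes were more often higher in the ES IPs and long genes more often lower. The 14858 protein-coding genes with a length were divided into deciles by span, the distance from start to end of the gene. In the shortest decile, under 4.78 kb, 35.9% were higher and 14.1% lower (median log2 fold change 0.33). In the longest decile, from 142 to 2961 kb, 16.3% were higher and 36.9% lower, with a median of -0.24. Across genes, Spearman's rank correlation between span and log2 fold change was -0.19, and that for the longest transcript was -0.14; genes are not independent replicates, and these are descriptions. Some lists that were lower hold long genes, with a median span of 232 kb for glutamate and GABA receptors and 665 kb for synaptic adhesion molecules. It was 5.69 kb for immediate early genes and 13.3 kb for the proteasome, which were mostly higher. Other lists that were lower hold short genes: 11 kb for inhibitory neurons, 13.5 kb for microglia and macrophages and 14.3 kb for choroid plexus and ependyma. The postsynaptic density and basement membrane lists, at 101 and 102 kb, had more members higher than lower. Kalrn, which spans chromosome 16 from 33969073 to 34573532, lies in the longest decile and was higher.

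**Figure D4:**
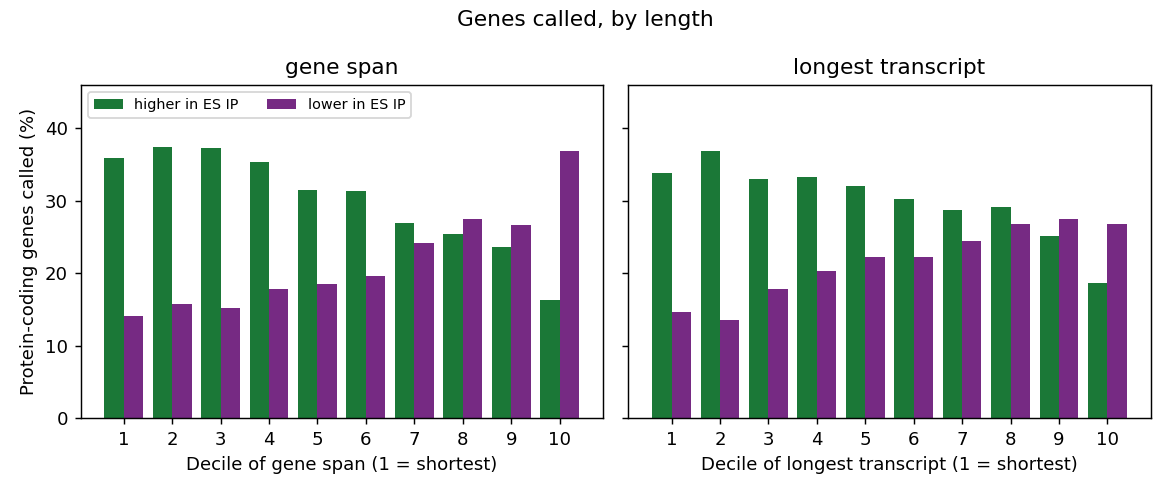
Share of protein-coding genes called higher (green) or lower (purple) in the ES IPs than in the inputs, in percent, by decile of gene span (left) and of longest transcript (right). By span the share called higher falls from 35.9% in the shortest decile to 16.3% in the longest, and the share called lower goes from 14.1 to 36.9%.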

How the data were processed

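Per the labels' protocols, cortex was homogenised, tagged polysomes were captured by anti-EGFP beads, and RNA was then isolated by kit. The authors, per the submitters' processing notes, aligned reads with STAR 2.0.0e to mm10 and counted them with HTSeq; annotation, strand setting and filters: not given in the sources used here. Overlapping antisense genes are therefore uncertain. The deposited values are raw counts per gene, 1 file per library. Left out were 6 rows that name no gene (HTSeq's special rows, unknown). Of all counts except non-unique alignments, 17.3 to 19.1% had no feature and 2.44 to 2.54% were ambiguous in the ES IPs. In the inputs these shares were 18.8 to 19.8% and 10.3 to 11.3%. Non-unique alignments equalled 143, 102 and 95.3% of gene counts in ES IPs 1, 2 and 3, and 61 to 63.5% in the inputs. Their part in the levels of genes with near-identical copies was not tested.

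Testing used edgeR 4.0.16 under R 4.3.3 (filterByExpr, TMM, glmQLFit, glmQLFTest, Benjamini-Hochberg adjustment over all rows tested, threshold 0.05), each comparison fitted on its own 6 libraries, with no block; the script was tested on simulated counts. Standard errors were obtained as |log2 fold change| / √F. Levels of JL IPs use the same TMM reference. DESeq2 1.42.0 and limma 3.58.1 served as alternatives. Positions and lengths come from GENCODE M21 (mm10), whose symbols 23155 row names match. The members, lists and genes were chosen with earlier results of these data known. Genes named are Abcb1a, Cldn5, Kalrn, Malat1, Mbp and Rpl10a; the 15 largest and 15 smallest log2 fold changes with adjusted p under 0.05, a higher-group mean of at least 10 CPM and groups that did not overlap, without predicted genes, pseudogenes, small RNAs or accession rows; and per list the 2 highest members, the extremes and those against their list's direction. The 95% interval of a count ratio covers counting error only.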

Additional observations from a re-analysis of the deposited data

Results flagged for a closer look

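The enrichment of the ES IPs over the inputs differed from that of the JL IPs over the same inputs. The difference was tested as ES IP against JL IP with edgeR's quasi-likelihood test: 4809 genes were higher in the former and 4572 lower. Abcb1a was lower in the ES IPs by -3.3 on the log2 scale (edgeR adjusted p = 7.29e-07) and Cldn5 by -2.69 (1.63e-05), with all 3 ES IPs below all 3 JL IPs. Kalrn was higher by 2.18 (3.2e-06) and Mbp by 1.69 (0.000774), again with no overlap. Rpl10a was lower by -1.09 (0.0197), a call that was lost without ES IP 2 or ES IP 3 (0.0843 and 0.0799). The IPs of the 2 investigators were sequenced in different lanes, and lane and investigator cannot be told apart.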

How the results depend on the processing

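The numbers of genes called in the ES IP against JL input and ES IP against JL IP comparisons stayed within 1.5 times under every alternative run: other size factors, no low-count filter, DESeq2, limma-voom, a replicate block, all 9 libraries in 1 fit, Rn45s left out, and each library left out. Leaving out 1 library gave 3453 to 5819 genes higher and 3254 to 5513 lower than the inputs, and 4149 to 4910 higher and 3820 to 4994 lower than the JL IPs. It gave a median log2 fold change of -0.28 to -0.15 for the longest decile of genes, 31.5 to 48.1% of long noncoding genes lower, and median shares of the JL IP excess of 10.6 to 12.6% for pan-endothelial genes and 8.11 to 11.1% for barrier transporters. With no low-count filter, 23715 rows were tested and 23.2% of long noncoding genes were lower, in place of 40.8%; more rows with few counts enter that share. Upper-quartile scaling turned the log2 fold change of Snap25 from 0.12 to -0.03, neither past the threshold. Same-numbered ES IPs and inputs deviated together only weakly (correlations of 0.05, 0.03 and 0.03), so the numbers did not pair them; with the replicate block 4439 genes were higher and 4212 lower, Rpl10a passed as lower than the inputs (adjusted p = 0.0186), Malat1 as lower than the JL IPs (0.0101), Acsbg1 did not pass (0.0549), and 5 synaptic vesicle and SNARE genes were higher. Upper-quartile scaling raised the number of members lower from 2 to 4 for Wnt and Norrin signalling, basement membrane and chaperones, from 4 to 7 for perivascular fibroblasts and from 3 to 8 for ribosomal proteins. With all 9 libraries in 1 fit, 9 astrocyte, 6 oligodendrocyte precursor and 10 microglia genes were lower in place of 14, 10 and 16. The ES IPs varied more than the inputs, which widens the error of every value. Levels near 0.07 CPM rest on few counts.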
